A study of Mus musculus with 13 samples.

Results

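The miR-106b-25 and miR-106a-363 clusters are the paralogs of the miR-17-92 cluster. From these loci 7 mature miRNAs were followed over all 13 arrays. They are mmu-miR-106b-5p, mmu-miR-106b-3p, mmu-miR-93-5p and mmu-miR-25-3p of miR-106b-25, and mmu-miR-18b-5p, mmu-miR-20b-5p and mmu-miR-363-3p of miR-106a-363, written without the species prefix from here on. They were picked by locus and name, and are 7 of the 1122 mouse miRNAs measured. M295 is a cultured T-cell acute lymphoblastic leukaemia (T-ALL) line derived from C57BL/6 and was run on 1 array. LS and ES are late-stage and early-stage primary T-ALL, each with 3 arrays. Their cells were sorted as CD4+CD8+ from the spleens of C57BL/6 bone marrow chimeras transformed with N1ICD, the active intracellular part of Notch1. DN (CD4-CD8-) and DP (CD4+CD8+) are thymocytes sorted from the C57BL/6 thymus, each with 3 arrays and with no transgene named. Replicates are described as biological. The labels give neither the ages of the animals, the days behind "early" and "late", nor the vector that carried N1ICD. All leukaemic samples are labelled as spleen and all thymocytes as thymus, so leukaemia and tissue of origin cannot be told apart.

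A miRNA cluster is transcribed as a single primary RNA and cut into hairpins, and each hairpin yields a mature miRNA that represses mRNAs matching its seed, bases 2 to 8. miR-17-92 and its paralogs are known as promoters of proliferation and survival in lymphoid cells, where their targets include the cell cycle inhibitor p21 and the pro-apoptotic protein Bim. The miR-106b-25 cluster sits in an intron of Mcm7, a subunit of the replication helicase, and the miR-106a-363 locus on the X chromosome is known as a retroviral integration site in mouse T-cell lymphomas.

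The mature sequences below are those of RefSeq (GRCm38.p6), in which all 7 were found, and are shown because shared seeds (capitals) define the pairs compared between the clusters. In the miR-106b-25 cluster they read as follows.
miR-106b-5p: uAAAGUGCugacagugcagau
miR-93-5p: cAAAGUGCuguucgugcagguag
miR-25-3p: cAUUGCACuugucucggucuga
miR-106b-3p: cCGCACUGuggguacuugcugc
In the miR-106a-363 cluster they read as follows.
miR-20b-5p: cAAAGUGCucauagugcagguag
miR-18b-5p: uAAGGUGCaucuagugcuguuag
miR-363-3p: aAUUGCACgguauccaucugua
The seed AAAGUGC, that of the miR-17 family, is shared by miR-106b-5p, miR-93-5p and miR-20b-5p and occurs in 7 of the 1679 mature mouse miRNAs of the RefSeq table. The seed AUUGCAC, that of the miR-25 and miR-92 family, is shared by miR-25-3p and miR-363-3p and occurs in 6. The seed of miR-18b-5p, AAGGUGC, occurs in 2, and that of miR-106b-3p, the opposite arm of the miR-106b hairpin, occurs in 1.

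Outside the seed the pairs differ in how alike they are. miR-93-5p and miR-20b-5p differ at 3 of 23 bases, miR-106b-5p and miR-20b-5p at 4 of 21, and miR-25-3p and miR-363-3p at 13 of 22. miR-20b-5p differs from miR-20a-5p and miR-17-5p of the miR-17-92 cluster at only 2 of 23 bases, miR-18b-5p from miR-18a-5p at 2 of 23, and miR-25-3p from miR-92a-3p at 3 of 21. Hybridisation of such near-identical miRNAs to one another's probes cannot be told apart from their own signal. miR-106a-5p is not analysed here.

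Both clusters lie on the minus strand of GRCm38.p6. miR-106b-25 spans 498 bases (chr5:138165321-138165818) and its 3 hairpins, Mir106b, Mir93 and Mir25, all fall inside Mcm7. miR-106a-363 spans 875 bases (chrX:52741693-52742567) with 6 hairpins in the order Mir106a, Mir18b, Mir20b, Mir19b-2, Mir92-2 and Mir363. Of these, 1 overlaps the lncRNA gene Kis2 and none lies wholly inside it.

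Levels are given as log2 of the background-subtracted intensity divided by each array's 75th percentile, with a floor at -7.59. Levels of different miRNAs come from different probes and are not compared with each other. Between 115 and 257 mouse miRNAs were above background per array, and 229 were above it on all 3 arrays of at least 1 group and were tested. The array ES 1 had the fewest, with a standard deviation of its negative-control spots of 19.0 intensity units against at most 7.11 on the other arrays. The array ES 3 carried the myeloid miRNA miR-223-3p at 2.85, against at most -4.89 on every other array, although its cells were sorted as CD4+CD8+. The other myeloid marker, miR-223-5p, was at the floor on all 13 arrays, ES 3 included. The scaled signal of the mature lymphocyte marker miR-150-5p was also highest on ES 3, at 0.278, with DP 3 next at 0.194. The thymocyte markers miR-181a-5p, miR-181b-5p and miR-128-3p were above background on all 13 arrays, and the 4 stromal markers on none. The summed scaled signal of the 3 erythroid markers on the array was 0.0953 to 1.61 in LS, 0.0262 to 0.394 in ES, 0.757 to 1.02 in DN and 0.0218 to 0.0326 in DP, and its part in the results was not tested.

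miR-106b-5p, miR-93-5p, miR-25-3p, miR-20b-5p and miR-363-3p were above background on all 13 arrays. miR-18b-5p was above it on all but ES 3, and miR-106b-3p on M295 and 8 of the 12 primary arrays. All 7 entered the test, so no member was lost to the filter on low values.

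**Figure D1:**
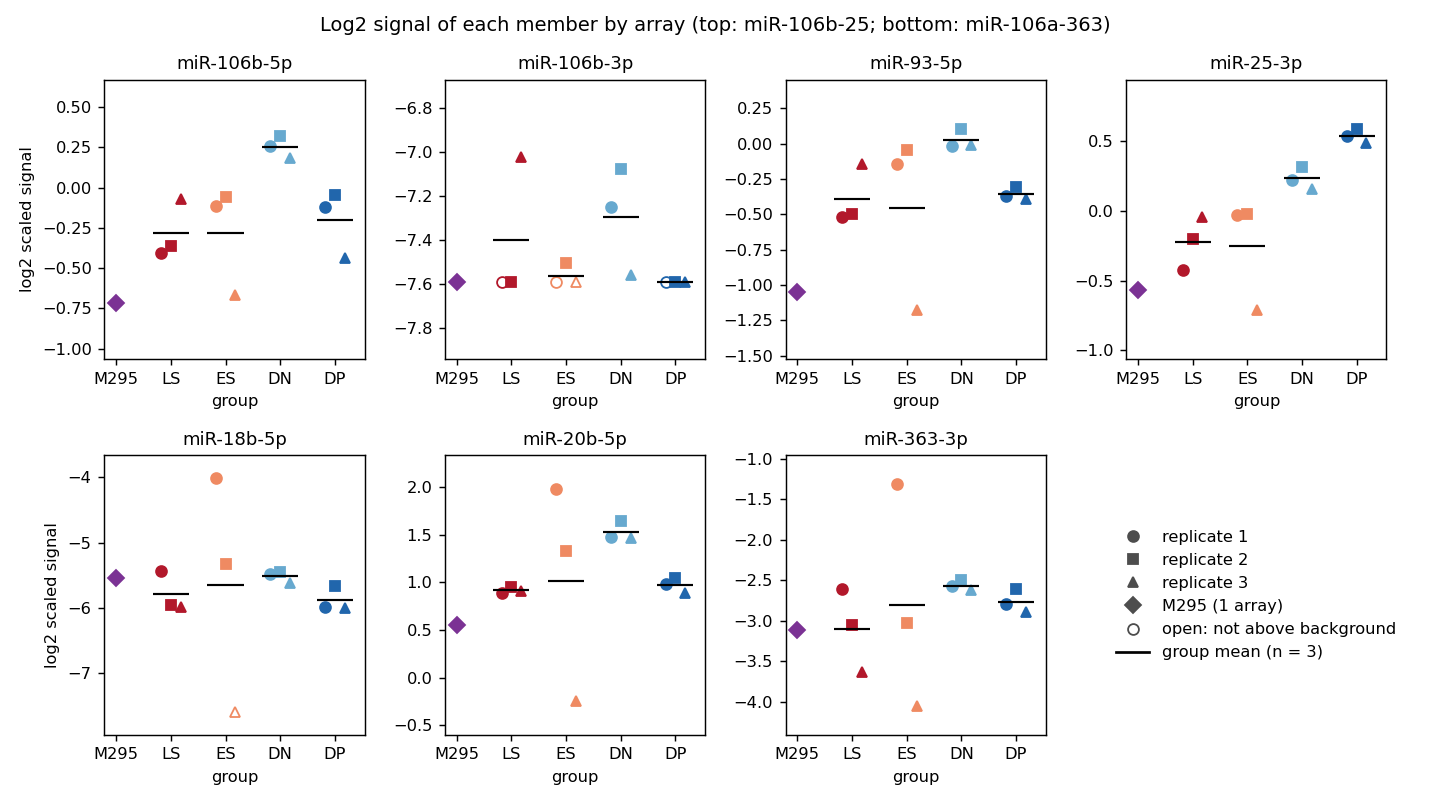
Log2 scaled signal of each member (vertical axis, own scale in each panel) on every array, by group (horizontal axis). Points are arrays, bars are means of 3 arrays, and open points are arrays on which the miRNA was not above background. For miR-25-3p all LS and ES arrays sit below all DN arrays, which sit below all DP arrays. For the 3 miR-106a-363 members ES 1 is the highest array and ES 3 the lowest.

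miR-25-3p, the Bim-targeting member of miR-106b-25, was the only member to pass the test between T-ALL and thymocytes (limma, adjusted p under 0.05) with the scaling used here. Its log2 level was -0.43, -0.20 and -0.04 in LS and -0.03, -0.02 and -0.71 in ES, against 0.22, 0.32 and 0.16 in DN and 0.54, 0.59 and 0.48 in DP thymocytes. Every T-ALL array lay below every thymocyte array, and every DN array lay below every DP array. Against DN alone its log2 difference was -0.49 in ES and -0.46 in LS, beside -0.53 and -0.53 for miR-106b-5p. Which members passed the test depended on the normalization. Whether miR-25-3p fell more than the other members was not tested.

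The mean of miR-25-3p was -0.24 ± 0.28 in T-ALL and 0.38 ± 0.18 in thymocytes (SD, n = 6 each), a log2 difference of -0.62 (SE 0.15, 95% interval -0.96 to -0.29, 1.54-fold lower, limma with Benjamini-Hochberg adjustment over the 229 miRNAs, adjusted p = 0.00598). Against DP alone, ES was lower by 1.73-fold (log2 difference -0.79, interval -1.26 to -0.32, adjusted p = 0.0127). LS was lower than DP by 1.69-fold (log2 difference -0.76, interval -1.23 to -0.29, adjusted p = 0.0122). ES and LS are compared with the same DP arrays, so these values are not independent of each other. In bulk RNA, fewer cells of a type and less of the miRNA per cell cannot be told apart.

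The call was common on these arrays. Of all tested miRNAs, 57.2% were called between T-ALL and thymocytes in either direction and 25.8% were called lower, and 19.7% had groups whose arrays did not overlap. Between ES and DP 46.3% were called, 25.3% lower, with 58.1% not overlapping. Between LS and DP 58.5% were called, 26.2% lower, with 78.2% not overlapping. Of the members, 1 of 7 was called lower and none higher in each of these comparisons, below the share of all tested miRNAs.

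Both probes of miR-25-3p moved alike, with log2 differences between T-ALL and thymocytes of -0.68 and -0.61. The fall was called whichever primary array was left out, with differences of -0.68 to -0.51 for T-ALL, -0.91 to -0.56 for ES against DP and -0.85 to -0.66 for LS against DP. Without ES 3 the T-ALL difference was -0.51 (adjusted p = 0.00183), and without ES 1 it was -0.68 (adjusted p = 0.00471). Slide 1 holds a single DN and a single DP array, and slide 2 a single ES and a single LS array, so values within a slide are given without a test. Within slide 1 the T-ALL difference was -0.55, and within slide 2 it was -0.77. ES minus DP was -0.56 within slide 1 and -1.25 within slide 2, and LS minus DP was -0.85 and -0.58. When the percentile for scaling was taken over all mouse miRNAs, the differences were -0.61 for T-ALL (adjusted p = 0.138), -0.25 for ES against DP (adjusted p = 0.629) and -0.96 for LS against DP (adjusted p = 0.0864), so all 3 calls ended and the ES difference shrank. The ES call also ended when only ES and DP were fitted, at the same difference of -0.79 (adjusted p = 0.0675).

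The summed level of the thymocyte markers followed the same order of T-ALL, DN and DP. The summed scaled signal of miR-181a-5p, miR-181b-5p and miR-128-3p was 1.75 to 2.91 in LS and 1.61 to 1.95 in ES, against 3.28 to 3.59 in DN and 7.92 to 8.14 in DP, and all 3 were called lower in T-ALL. Singly, the mean log2 level of miR-128-3p was -0.18 in LS and -0.26 in ES, against 1.22 in DN and 1.60 in DP, while miR-181a-5p was at -0.64 in LS against -0.83 in DN, and miR-181b-5p at -0.71 in LS against -0.97 in DN. LS thus lay below DN for miR-128-3p and above it for the other 2. Their part in the miR-25-3p result was not tested.

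miR-106b-5p and miR-93-5p, the miR-17 family members of the same cluster, did not pass the test between T-ALL and thymocytes. The log2 level of miR-106b-5p was -0.41, -0.36 and -0.07 in LS and -0.12, -0.06 and -0.67 in ES, against 0.26, 0.32 and 0.18 in DN and -0.12, -0.04 and -0.44 in DP. T-ALL arrays lay below the DN arrays and overlapped the DP arrays. The T-ALL difference was -0.31 (SE 0.15, interval -0.64 to 0.02, adjusted p = 0.0970).

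The log2 level of miR-93-5p was -0.52, -0.50 and -0.15 in LS and -0.14, -0.05 and -1.17 in ES, against -0.02, 0.10 and -0.01 in DN and -0.37, -0.31 and -0.39 in DP. It followed the pattern of miR-106b-5p, with ES 3 the lowest array of all the primary samples. The T-ALL difference was -0.25 (interval -0.69 to 0.18, adjusted p = 0.295), or -0.07 without ES 3 and -0.33 without ES 1. That of miR-106b-5p was -0.21 without ES 3 and -0.35 without ES 1. With quantile normalization both were called lower in T-ALL, miR-106b-5p at -0.51 (adjusted p = 0.0106) and miR-93-5p at -0.59 (adjusted p = 0.0464), and miR-106b-5p was also called in the authors' deposited value table at -0.48 (adjusted p = 0.0137).

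Against DP, where miR-25-3p fell, neither passed the test. ES minus DP was -0.08 for miR-106b-5p (interval -0.54 to 0.39) and -0.10 for miR-93-5p (interval -0.71 to 0.52). LS minus DP was -0.08 for miR-106b-5p and -0.03 for miR-93-5p. Scaled over all mouse miRNAs, ES minus DP turned to 0.46 for miR-106b-5p and 0.44 for miR-93-5p, again without a call. Set against the mean of the DP arrays, miR-25-3p was the lowest of these 3 cluster mates on each of the 6 T-ALL arrays. On LS 1, for example, it was at -0.96, where miR-106b-5p was at -0.21 and miR-93-5p at -0.16. DP is the group in which miR-25-3p was highest, and the order depends on that reference. ES minus DN was -0.49 for miR-25-3p, -0.53 for miR-106b-5p and -0.48 for miR-93-5p. LS minus DN was -0.46, -0.53 and -0.41 in the same order. Whether the cluster mates differ from each other was not tested.

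**Figure D2:**
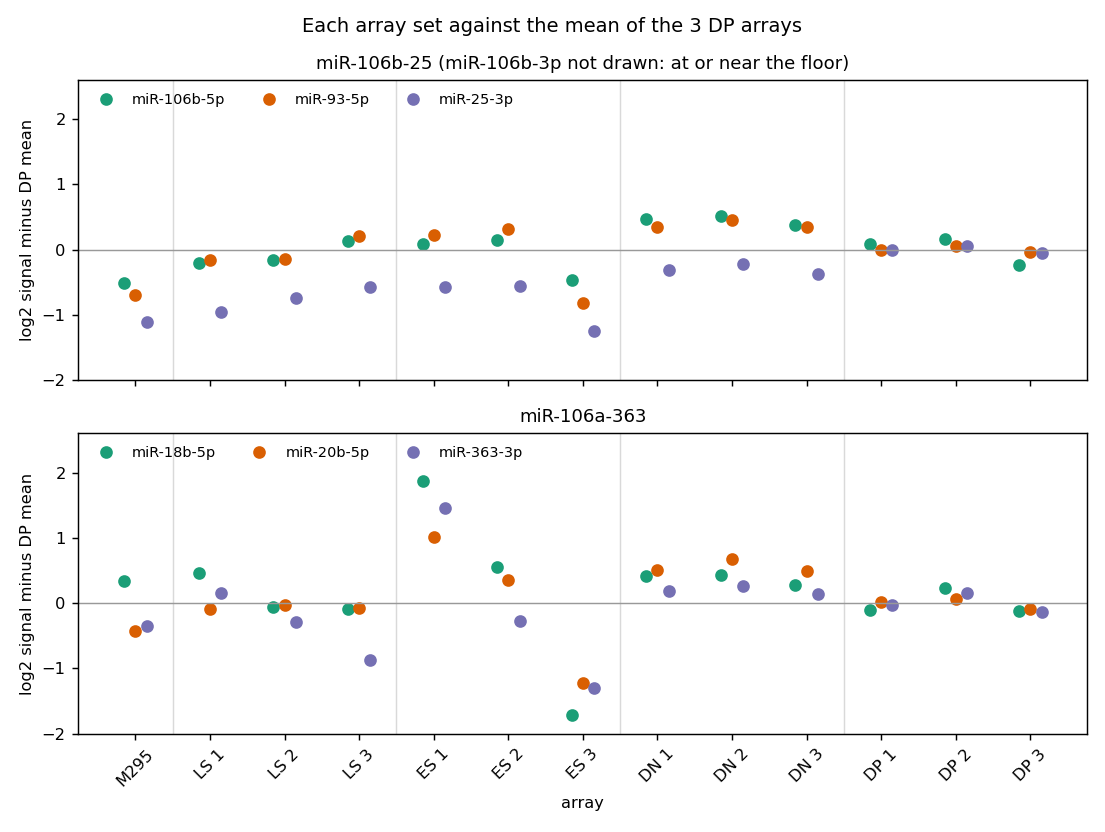
Log2 signal of each array (horizontal axis) minus the mean of the 3 DP arrays (vertical axis), with miR-106b-25 above and miR-106a-363 below. miR-25-3p lies under miR-106b-5p and miR-93-5p on M295 and on every LS, ES and DN array. The miR-106a-363 members range from 1.87 on ES 1 to -1.71 on ES 3.

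miR-106b-3p was near the floor on every array, so its differences are understated. Its averaged level was -7.59, -7.59 and -7.02 in LS and -7.59, -7.50 and -7.59 in ES, against -7.25, -7.08 and -7.56 in DN and -7.59 on each DP array. Only 1 of its 4 probes rose above background, and that probe read -5.64, -5.81 and -5.10 in LS, -5.33, -5.51 and -7.23 in ES, -5.29, -5.10 and -5.09 in DN and -5.91, -5.82 and -5.79 in DP. On that probe the DN arrays were all above the DP arrays and ES 3 was the lowest. miR-106b-3p passed the filter only through DN, so its higher DN level is partly a matter of that selection. The T-ALL difference of the averaged level was -0.04 (interval -0.35 to 0.28, adjusted p = 0.851).

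None of the 3 miR-106a-363 members was called in any of the 7 comparisons (limma, adjusted p under 0.05), and none had an unadjusted p under 0.05. miR-20b-5p, the miR-17 family member, was at 0.89, 0.95 and 0.91 in LS and 1.98, 1.32 and -0.25 in ES, against 1.48, 1.64 and 1.47 in DN and 0.99, 1.05 and 0.89 in DP. LS and DP overlapped and lay below DN, while the ES arrays ran from the highest to the lowest of all 12. The T-ALL difference was -0.28 (interval -0.97 to 0.40, adjusted p = 0.456), or 0.03 without ES 3 and -0.53 without ES 1.

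miR-363-3p, the seed partner of miR-25-3p, was at -2.60, -3.06 and -3.63 in LS and -1.31, -3.03 and -4.06 in ES, against -2.58, -2.50 and -2.63 in DN and -2.79, -2.61 and -2.90 in DP. The thymocyte arrays lay within a narrow band. Of the T-ALL arrays only ES 1 lay above it, LS 1 lay inside it, and LS 2, LS 3, ES 2 and ES 3 lay below. The T-ALL difference was -0.28 (interval -1.15 to 0.59, adjusted p = 0.559), or 0.03 without ES 3 and -0.66 without ES 1.

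miR-18b-5p, of the miR-18 family, was at -5.43, -5.95 and -5.98 in LS and -4.01, -5.33 and -7.59 in ES, against -5.47, -5.45 and -5.61 in DN and -5.99, -5.66 and -6.00 in DP. ES 3 was at the floor and not above background. The T-ALL difference was -0.02 (interval -1.08 to 1.05, adjusted p = 0.976), or 0.47 without ES 3 and -0.43 without ES 1. Its brightest probe gave a difference of -0.00, and 2 of its 4 probes were above background on no array.

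On these 3 members the ES arrays disagreed. ES 1 exceeded ES 3 by 3.58 log2 units for miR-18b-5p, 2.76 for miR-363-3p and 2.23 for miR-20b-5p, against 1.03 for miR-93-5p, 0.68 for miR-25-3p and 0.55 for miR-106b-5p. The share of tested miRNAs with a larger ES 1 excess was 0% for miR-18b-5p, 0.437% for miR-363-3p and 1.75% for miR-20b-5p, and the median over all tested miRNAs was -0.63. The gap has 1 array on each side, ES 1 with the noisy background on slide 1 and ES 3 with the high miR-223-3p on slide 2. The part of either was not tested.

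Leaving out ES 3 brought 2 calls between ES and DP, with miR-18b-5p higher by 1.21 (adjusted p = 0.0143) and miR-20b-5p higher by 0.68 (adjusted p = 0.0134), where the values with all arrays were 0.24 (adjusted p = 0.794) and 0.05 (adjusted p = 0.931). Leaving out ES 1 turned both ES differences to -0.58 and -0.44 without a call, and made miR-363-3p lower in T-ALL at -0.66 (adjusted p = 0.0376). Within slide 1, which holds ES 1, ES 2 and a single DP array, ES minus DP was 1.32 for miR-18b-5p, 0.67 for miR-20b-5p and 0.62 for miR-363-3p. Within slide 2, which holds ES 3 alone of its group, the differences were -1.76, -1.22 and -1.31 in the same order, and rest on that 1 array. For these members ES 1 lay above and ES 3 below every DP array.

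The spread within T-ALL groups was larger than within thymocyte groups for every member, as for 214 of the 229 tested miRNAs (93.4%). The pooled within-group SD was 1.30 in T-ALL and 0.15 in thymocytes for miR-18b-5p, 1.05 and 0.11 for miR-363-3p, and 0.81 and 0.09 for miR-20b-5p. For the miR-106b-25 members it was 0.23 to 0.47 in T-ALL and 0.06 to 0.17 in thymocytes, and the median over all tested miRNAs was 0.57 in T-ALL and 0.15 in thymocytes.

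**Figure D3:**
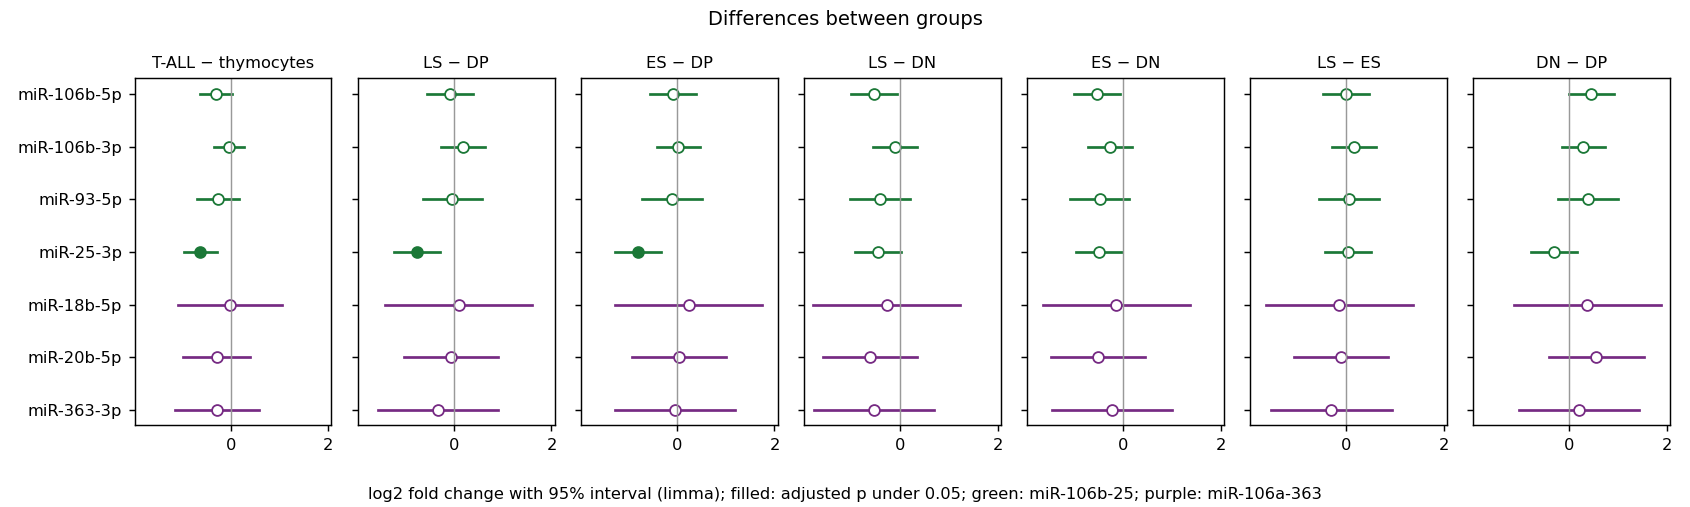
Log2 fold change with its 95% interval (horizontal axis, limma on 12 arrays) for each member (rows) in the 7 comparisons (panels). Filled points have an adjusted p under 0.05. Only miR-25-3p is filled, in T-ALL against thymocytes, LS against DP and ES against DP, and the miR-106a-363 intervals (purple) are the widest.

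No member passed the test between the stages of disease. Between LS and ES none was called (limma, adjusted p of 0.680 or more, none with an unadjusted p under 0.05), against 2.62% of all tested miRNAs called and 14.8% with an unadjusted p under 0.05. miR-25-3p differed by 0.03 (interval -0.44 to 0.50) and miR-106b-5p by 0.00 (interval -0.46 to 0.47). The miR-106a-363 members differed by -0.10 to -0.30, and the widest interval, that of miR-18b-5p, ran from -1.65 to 1.37. Without ES 3, miR-18b-5p was called lower in LS by 1.11 log2 units (adjusted p = 0.0442), and miR-20b-5p by 0.74 (adjusted p = 0.0235).

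Between DN and DP thymocytes, miR-25-3p and its cluster mates had differences of opposite sign, none of them past the test. Scaled over all mouse miRNAs the difference of miR-25-3p was -0.01 (adjusted p = 0.996), beside 0.75 for miR-106b-5p and 0.68 for miR-93-5p, so the opposite sign depends on the scaling. miR-25-3p was lower in DN by 0.30 log2 units (adjusted p = 0.329), whereas miR-106b-5p was higher by 0.45 (interval -0.01 to 0.92, adjusted p = 0.135), miR-93-5p by 0.38 (adjusted p = 0.337) and miR-106b-3p by 0.29 (adjusted p = 0.323). In the other cluster, miR-20b-5p was higher in DN by 0.56 (adjusted p = 0.373), miR-18b-5p by 0.37 (adjusted p = 0.727) and miR-363-3p by 0.20 (adjusted p = 0.812). None was called, against 29.3% of all tested miRNAs, and none had an unadjusted p under 0.05, against 39.7%. The DN and DP arrays did not overlap for 6 of the 7, all but miR-363-3p, where 76% of all tested miRNAs did not overlap. Of these, miR-106b-3p passed the filter only through DN and was at the floor on all DP arrays. Its difference and its lack of overlap are therefore no evidence of a higher level in DN.

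The DN against DP calls depended on the T-ALL arrays that share the estimate of spread. With only DN and DP fitted, 5 members were called: miR-20b-5p (adjusted p = 0.00173), miR-93-5p (0.00457), miR-106b-5p (0.0145) and miR-18b-5p (0.0283) higher in DN, and miR-25-3p (0.0145) lower. In that fit 164 of the 229 tested miRNAs were called, against 67 when all groups were fitted. Without ES 3, the calls were miR-20b-5p (limma, adjusted p = 0.0246), miR-106b-5p (0.0344) and miR-93-5p (0.0442), where 101 of the 229 tested miRNAs were called.

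Against DN thymocytes every member had a lower mean in both stages of T-ALL, none of them called, while 6.55% of all tested miRNAs were called between ES and DN and 33.2% between LS and DN. For miR-106b-3p, which passed the filter only through DN, the lower T-ALL means are no evidence of a difference. The log2 difference of miR-106b-5p was -0.53 for ES (SE 0.21, adjusted p = 0.158) and -0.53 for LS (SE 0.21, adjusted p = 0.0754). That of miR-25-3p was -0.49 for ES (adjusted p = 0.174) and -0.46 for LS (adjusted p = 0.132). miR-106b-5p had an unadjusted p of 0.0283 in both, and miR-25-3p one of 0.0441 in ES, the only members with an unadjusted p under 0.05 there, against 27.1% of all tested miRNAs for ES and 41.9% for LS. The arrays of ES and DN did not overlap for miR-106b-5p, miR-93-5p and miR-25-3p, nor those of LS and DN for these and miR-20b-5p, where 36.2% and 57.6% of all tested miRNAs did not overlap. Without ES 3, ES minus DN was 0.84 for miR-18b-5p, 0.12 for miR-20b-5p and 0.40 for miR-363-3p. Without ES 1 it was -0.95, -0.99 and -0.98 in the same order. The sign for these 3 thus depended on which of ES 1 and ES 3 was kept. For miR-25-3p, miR-106b-5p and miR-93-5p it was -0.26, -0.34 and -0.12 without ES 3. Without ES 3, 4 members were called lower in LS than DN: miR-106b-5p (limma, adjusted p = 0.0143), miR-20b-5p (0.0133), miR-25-3p (0.0156) and miR-93-5p (0.0268). In that fit 117 of the 229 tested miRNAs were called in either direction. The members called are those whose LS and DN arrays did not overlap. Their calls and their lack of overlap rest on the same arrays.

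By cluster, the median log2 difference between T-ALL and thymocytes was -0.28 over the 4 miR-106b-25 members and -0.28 over the 3 miR-106a-363 members, beside -0.12 over all tested miRNAs. Between ES and DP the medians were -0.09 and 0.05, beside 0.07 over all, and between LS and DP -0.06 and -0.06, beside 0.19. Between DN and DP they were 0.34 and 0.37, beside 0.15. With scaling over all mouse miRNAs the median of all tested miRNAs was 0.59 between ES and DP, 0.03 between LS and DP and 0.45 between DN and DP, so the size of any shared shift depends on the scaling.

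The clusters were compared with each other through pairs of the same seed, as the log2 ratio within an array. Scaling by a single factor per array does not touch this ratio, but other normalizations do. Each ratio is given minus its mean over the DP arrays. miR-25-3p over miR-363-3p was -1.12, -0.45 and 0.29 in LS and -2.03, -0.29 and 0.05 in ES, against -0.50, -0.49 and -0.52 in DN and 0.02, -0.10 and 0.08 in DP. The DN arrays lay together below the DP arrays, and the T-ALL arrays spread over and beyond both. The T-ALL mean was -0.59 ± 0.85 and the thymocyte mean -0.25 ± 0.28 (SD, n = 6 each), a difference of -0.34 (exact permutation test over samples, two-sided, p = 0.420, adjusted over the 3 ratios 0.905).

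miR-106b-5p over miR-20b-5p averaged -0.07 ± 0.55 in T-ALL and -0.05 ± 0.11 in thymocytes, a difference of -0.02 (exact permutation p = 0.905, adjusted 0.905). miR-93-5p over miR-20b-5p averaged -0.06 ± 0.42 in T-ALL and -0.09 ± 0.10 in thymocytes, a difference of 0.03 (exact permutation p = 0.900, adjusted 0.905). ES 1 had the lowest and ES 3 the highest value of both ratios, -0.92 and 0.76 for the first and -0.79 and 0.41 for the second. No difference between the clusters was detectable beyond the spread of the T-ALL arrays. Within slide 1 the 3 differences were -0.73, -0.36 and -0.16, and within slide 2 they were 0.42, 0.56 and 0.43, so each had opposite signs on the 2 slides. With quantile normalization they were -0.08, -0.09 and -0.17 in the same order. In the authors' deposited value table they were -0.14, -0.08 and -0.16, so the last changed sign in both.

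**Figure D4:**
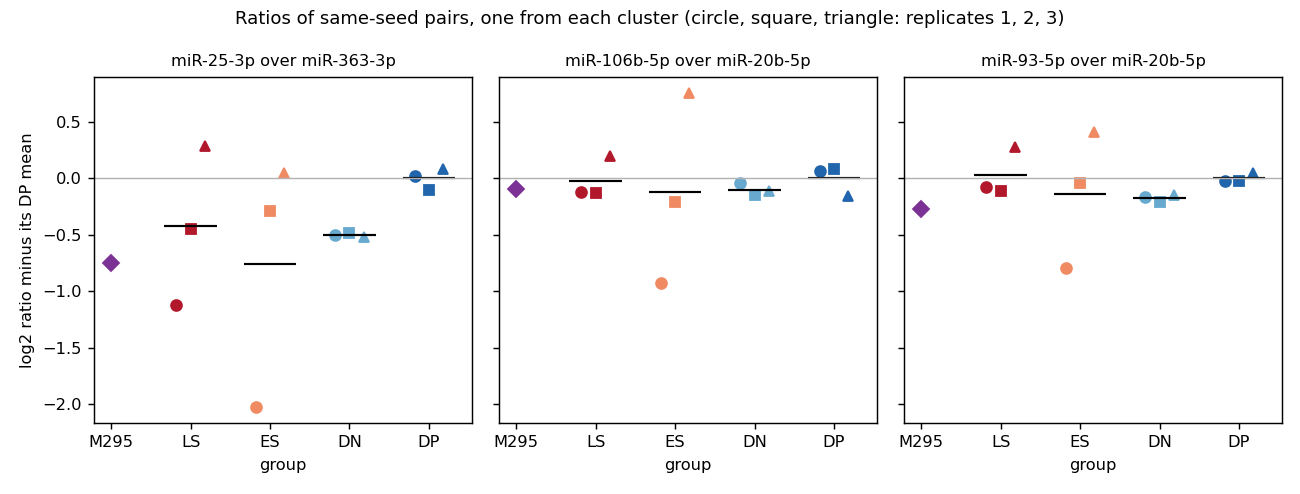
Log2 ratio of each same-seed pair within an array, minus its mean over the 3 DP arrays (vertical axis), by group (horizontal axis). Points are arrays and bars are means of 3 arrays. Thymocyte ratios lie between -0.52 and 0.09, and T-ALL ratios between -2.03 on ES 1 and 0.76 on ES 3.

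Across the 12 primary arrays, members of a cluster did not all track each other. These correlations describe arrays that share groups and scaling, and carry no test. miR-106b-5p and miR-93-5p went together (Pearson r = 0.90, Spearman rho = 0.92, and r = 0.91 without ES 1 and ES 3), while miR-25-3p followed them less (r = 0.56 with miR-106b-5p and 0.59 with miR-93-5p, or 0.31 and 0.21 without ES 1 and ES 3). The 3 miR-106a-363 members correlated at r = 0.85 to 0.92, which became 0.50 to 0.66 without ES 1 and ES 3. Across the clusters, miR-93-5p and miR-20b-5p, of the same seed, correlated at r = 0.90. Their r was 0.89 without ES 1 and ES 3 and 0.68 without DN 2 and ES 3. miR-25-3p and miR-363-3p, also of the same seed, correlated at r = 0.39, or 0.30 without ES 1 and ES 3 and 0.00 without DP 2 and ES 3.

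The tested miRNA most like miR-25-3p in its levels over the 12 arrays was miR-128-3p (r = 0.96, or 0.95 without ES 1 and ES 3), which is also a thymocyte marker, followed by miR-181d-5p (0.91) and let-7a-5p (0.88). Those most like miR-93-5p were miR-130b-5p (0.97), miR-92a-3p (0.95) and miR-20a-5p (0.95). miR-106b-5p was most like miR-93-5p (0.90), miR-20a-5p (0.90) and miR-19b-3p (0.89), and miR-106b-3p was most like miR-20a-3p (0.70), miR-331-3p (0.69) and miR-101a-3p (0.68). miR-20b-5p was most like miR-18b-5p (0.92), miR-17-5p (0.91) and miR-92a-3p (0.91), and without ES 1 and ES 3 these were 0.66, 0.84 and 0.89. miR-18b-5p was most like miR-20b-5p (0.92), miR-363-3p (0.91) and miR-17-5p (0.78), or 0.66, 0.54 and 0.53 without these arrays. miR-363-3p was most like miR-18b-5p (0.91), miR-15b-3p (0.88) and miR-20b-5p (0.85), or 0.54, 0.60 and 0.50 without them. For the miR-106b-25 members the values without these arrays lay between 0.71 and 0.96. The median correlation of a member with all tested miRNAs lay between -0.23 and 0.07.

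M295, on its single array, had miR-106b-5p at -0.72, below the 6 primary T-ALL arrays (-0.67 to -0.06). The other 6 members lay inside the T-ALL range: miR-93-5p at -1.05, miR-25-3p at -0.57, miR-20b-5p at 0.55, miR-363-3p at -3.12, miR-18b-5p at -5.55 and miR-106b-3p at the floor. Of the 229 tested miRNAs, 25.8% lay below and 23.1% above the T-ALL range in M295. miR-25-3p was 1.10 log2 units below the DP mean in M295, lower than on any primary T-ALL array but ES 3. A single array has no replicate check, so no difference was tested.

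The other strands of the same hairpins gave little or no signal. Neither miR-93-3p nor miR-25-5p was above background on any array, and of the 6 further miR-106a-363 products on the array only miR-20b-3p was, on 4 arrays, and none of these passed the filter. miR-92a-3p and miR-19b-3p, which the miR-17-92 and miR-106a-363 loci both encode, were tested and called in none of the 7 comparisons, with T-ALL differences of -0.43 (adjusted p = 0.122) and -0.18 (adjusted p = 0.580).

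Of 9 miR-17-92 products on the array, 7 were tested. None was called between T-ALL and thymocytes (limma, none with an unadjusted p under 0.05), with a median difference of -0.14. Between DN and DP, 4 of the 7 were higher in DN and none lower: miR-18a-5p by 1.69 (adjusted p = 0.0146), miR-19a-3p by 1.19 (adjusted p = 0.0239), miR-17-3p by 1.08 (adjusted p = 0.0282) and miR-20a-3p, which was at the floor on all DP arrays (adjusted p = 0.00317). Of all tested miRNAs 10.5% were called higher there. The median was 1.19 for these 7 miR-17-92 products, beside 0.34 and 0.37 for the miR-106b-25 and miR-106a-363 members and 0.15 over all tested miRNAs. The difference between the 3 clusters was not tested.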

How the data were processed

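Total RNA of sorted cells was labelled with Cy3 and hybridised to 1-colour Agilent miRNA arrays named after miRBase release 18. Per the file headers, spots were read with Feature Extraction 10.7.3.1, and the deposited files hold each spot's background-subtracted intensity. The authors also deposited a value table, on a log2 scale with a median of 3.29 in every column, whose values rank as the scanner values do. GCOS, MAS5, affy and RMA are listed in the submitters' processing notes, and the role of each is not given in the sources used here.

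Spots that were controls or marked as outliers (4.03 to 8.60% per array) were left out, and none was saturated. A miRNA's value is the mean of its probes, each the mean of its spots. Values were scaled to the 75th percentile of the 108 mouse miRNAs above background on all 12 primary arrays, floored and log2 transformed. Above background means that at least 50% of the spots of 1 probe were well above background by the scanner's flag. The number of arrays limits the precision. The 12 primary arrays were fitted in limma 3.58.1 (R 4.3.3) with 1 mean per group and eBayes without trend, and the steps were tested on simulated data. M295 was left out of the fit.

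All 7 members are named in every comparison, the other products of both loci and of miR-17-92 as lists, and for each member the 3 miRNAs of highest correlation. Members and lists were chosen with earlier results of these data known. Alternatives were other background corrections, scalings, filters, slides, a replicate block and leaving out each array. Sequences and positions are RefSeq's.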

Additional observations from a re-analysis of the deposited data

Results flagged for a closer look

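In T-ALL the averaged level of miR-106b-3p on LS 3 was -7.02, and stood apart from the other 5 T-ALL arrays, which lay between -7.59 and -7.50. The gap to the nearest array was 0.845 of the whole range, above Dixon's 95% limit for 6 arrays. Of these other arrays 4 are at the floor, so the gap is measured against floored values and is no measure of how unusual LS 3 is. Chance passes that limit in about 1 in 20 groups, and 20 were examined. On the single probe of miR-106b-3p with signal above background, LS 3 read -5.10 and the other T-ALL arrays between -7.23 and -5.33.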

How the results depend on the processing

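The number of members called depended on the scaling and the arrays that shared the estimate of spread. It was 1 between T-ALL and thymocytes, ES and DP, and LS and DP, and 0 in the other 4 comparisons. Scaled over all mouse miRNAs, it was 0 in the first 3. With quantile normalization it was 3 for T-ALL, 1 for ES against DN and 1 for LS against DN, and in the authors' deposited value table it was 2 for T-ALL and 1 for LS against DN. Slide 1 holds a lone DN and a lone DP array and slide 2 a lone ES and a lone LS array. Counts of calls within a slide are therefore not given. With only the groups compared it was 0 for ES against DP, 5 for DN against DP and 3 for LS against DN, and for T-ALL that fit is the one reported. Leaving out each array gave 1 to 2 for T-ALL, 1 to 3 for ES against DP, 1 to 1 for LS against DP, 0 to 2 for LS against ES, 0 to 3 for DN against DP, 0 to 0 for ES against DN and 0 to 4 for LS against DN. Within slide 2 miR-18b-5p and miR-20b-5p turned to -1.76 and -1.22 for ES against DP and to 1.61 and 1.16 for LS against ES. The ratio differences moved to -0.73 (miR-25-3p over miR-363-3p) and -0.36 (miR-106b-5p over miR-20b-5p) within slide 1 and to 0.43 (miR-93-5p over miR-20b-5p) within slide 2. Leaving out each array gave -0.52 to -0.05, -0.19 to 0.15 and -0.06 to 0.18 for these ratios. The cause was not tested. Of the values compared for counts and ratios, 196 were labelled the same and 28 moved. For single members 1101 were labelled the same. That label is coarse and does not mean an unchanged value. It covers the range of -0.52 to -0.05 for the first ratio when each array was left out. It also covers T-ALL differences of miR-18b-5p from -0.43 to 0.47, which change sign.

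Same-numbered arrays were not treated as pairs in the fit. Of 18 such pairs, 6 correlated above 0.1 in their deviations from the group means (-0.34 to 0.50). With 3 arrays per group these correlations cannot decide whether same-numbered arrays share an origin. The replicate block changed no member's call, with miR-25-3p at adjusted p of 0.0135, 0.0239 and 0.0227 for T-ALL, ES against DP and LS against DP, and with the slide as a block at 0.00945, 0.0171 and 0.0161. With the replicate block 3 of all tested miRNAs were called between LS and ES, where 6 were without it, and 6 between ES and DN, where 15 were without it. Restricting the test to miRNAs above background on all 12 arrays gave 60 calls where 131 were made for T-ALL, 60 against 106 for ES against DP, 68 against 134 for LS against DP, 33 against 67 for DN against DP, 7 against 15 for ES against DN and 35 against 76 for LS against DN, with fewer miRNAs tested. Without ES 3 the calls over all miRNAs were 120 between ES and DP, 55 between LS and ES, 101 between DN and DP and 117 between LS and DN. Normexp background correction gave 43 for DN against DP, 0 for ES against DN and 46 for LS against DN. Signal over background limits miR-106b-3p, which was at or near the floor on every array, and miR-18b-5p on ES 3, the only array where it was at the floor.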
